A study of Mus musculus with 16 samples.

Results

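The first hour of the transcriptional response to TGFβ was measured in mouse embryo fibroblasts (MEFs) as the difference between RNA collected after 1 h of TGFβ at 2.5 ng/ml and RNA of untreated cells (0 h). The comparison was made in 5 series that each held 1 library of 0 h and 1 of 1 h. The differences thus rest on 10 of the 16 libraries of the study, chosen by line and time from their labels. Their standard errors and p-values come from a fit to all 16 libraries. The first series came from Ark+/+ cells, the wild type (WT). A pair of series came from Ark-/- cells, the null, which lack Arkadia, a ubiquitin ligase encoded by Rnf111; these are called null A and null B after the library set they belong to. The other two series came from Ark-/- cells given wild-type Arkadia (rvCAG-ArkWT, here rvWT) or a mutant of its SUMO-interacting motif (rvCAG-Arksim, here sim) by retrovirus. WT and null A belong to set A, and null B, rvWT and sim to set B. The study sequenced the libraries in 2 batches. All libraries were poly(A)-selected, and no animal age or number of cell clones is given in the sources used here. Each line may therefore stand for a single isolate, 4 of the 5 series descend from null cells, and WT and null cells differ in their isolate as well as in Rnf111. With no library of an empty retrovirus analysed here, the virus and the Arkadia it carried cannot be told apart. The study also holds no untreated library of 1 h, so TGFβ cannot be told apart from handling or elapsed time.

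TGFβ binds a pair of receptor kinases at the cell surface that phosphorylate SMAD2 and SMAD3, which join SMAD4, enter the nucleus and change transcription within minutes to hours. Among the genes switched on first are inhibitors that act back on the pathway, such as SMAD7, and transcription factors that carry the response onward. Arkadia is known for marking the repressors SKI and SnoN and the inhibitor SMAD7 for destruction. In fibroblasts the pathway is known for raising matrix, cytoskeletal and growth factor genes, many of them hours later.

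Values are FPKM, fragments scaled to transcript length and to the mapped fragments of the library. The table of 12100 genes holds no counts, so the read depth of each library is unknown. Total FPKM ran from 397930 to 463487 over the 10 libraries, and 4.98% to 8.77% of it fell to small RNAs, a class that poly(A) selection captures badly. In 334 genes a library lay under 0.1 FPKM while another held 5 FPKM or more, so a value near 0 can be a failed estimate. Rnf111 checked the labels: at 0 h it stood at 14.6 FPKM in WT, 0.155 in null A, 0.526 in null B, 110 in rvWT and 62.1 in sim, and at 1 h at 15.1, 0.198, 0.435, 103 and 56.0 in the same order. Retroviral Rnf111 thus exceeded the WT level in both reconstituted lines, and Rnf111 did not pass the test between 0 and 1 h (-0.05 ± 0.05 on the log2 scale, limma adjusted p = 0.697). Of the fibroblast markers, 10 of 12 listed were tested and their summed level ran from 1822 to 7878 FPKM at 0 h and from 2045 to 7383 at 1 h, Col1a1 alone from 437 FPKM (WT) to 1960 (rvWT) at 0 h. Pdgfra and Fap were not analysed here. Epithelial markers (4 of 9 listed tested) summed to between 14.6 and 526 FPKM at 0 h and between 22.3 and 529 at 1 h, the highest in WT through Krt19 at 519 FPKM at both times against at most 4.91 in the other series. Endothelial (3 of 8 tested), haematopoietic (3 of 9), neural (4 of 8) and muscle markers (3 of 7) summed to at most 54.6 FPKM in any of the 10 libraries. In these bulk samples, fewer cells of a type and less RNA per cell cannot be told apart.

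After 1 h of TGFβ, 436 of the 11045 genes tested were higher and 222 were lower. Together these 658 genes made up 5.96% of those tested, 3.95% higher and 2.01% lower. The fit took in all 16 libraries, so its spread was estimated from those of 4 and 16 h too. The test was limma-trend on log2(FPKM + 1) with the series as a block, Benjamini-Hochberg adjustment over all genes tested and an adjusted p below 0.05. A difference on that scale understates the change of genes with low FPKM. The rises were larger than the falls: 74 genes rose by at least 1 log2 unit and 10 fell by at least as much. The number of calls depended on the libraries fitted: with the 10 libraries of 0 and 1 h alone 693 genes were called higher and 701 lower, and without the sim series 255 and 68. The direction was shared by all 5 series for 429 of the 436 rises and 218 of the 222 falls. The calls were made on these same series, so this agreement comes in part from the choice of genes. In 179 genes (1.62%) the 5 libraries of 1 h did not overlap the 5 of 0 h at all, and 103 of these were rises and 44 were falls that passed. The median difference of all genes tested was -0.03. The design text calls the samples independent, without saying that they came from separate cultures, so the p-values speak for the scatter of these libraries alone, some of which may be technical. An exact sign-flip test over 5 series could not go below a two-sided p of 0.0625, so no single gene was tested that way.

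Each series or library left out lowered both counts. Leaving out a series left 431 rises and 162 falls without WT, 351 and 115 without null A, 311 and 90 without null B, 287 and 105 without rvWT, and 255 and 68 without sim. Leaving out a single library took the falls below 148, that is by over 1.5 times, for each of the 10 libraries except WT at 0 h: the count was 112 without WT at 1 h, 120 and 130 without null A at 0 and 1 h, 90 without either null B library, 100 and 120 without rvWT at 0 and 1 h, and 100 and 118 without sim at 0 and 1 h. The sets follow the library names, and how the 2 sequencing batches map to them is not given in the sources used here. Within sets, set B alone (3 series) gave 372 rises (3.39%) and 89 falls (0.812%). Set A alone (2 series) gave 9 rises (0.082%) and 3 falls (0.0273%).

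The responses could also be read in a series that had no part in choosing the genes. For this, genes were called in 4 series and their values were described in the fifth. Of 431 genes called higher without WT (3.92%), 94.7% were also higher in WT, where 38.7% of all genes tested were, and their median difference in WT was 0.51 against 0.55 in the other 4. The genes called higher without null A (3.18%), null B (2.82%), rvWT (2.60%) or sim (2.31%) were higher in the series left out in 99.4%, 99.4%, 99.0% and 100% of cases. In the same order, 40.3%, 38%, 38.9% and 46.6% of all genes tested were higher there. The genes called lower without WT (1.47%), null A (1.04%), null B (0.817%), rvWT (0.951%) or sim (0.616%) went the same way in 90.7%, 96.5%, 95.6%, 97.1% and 92.6% of cases, with 53.1% to 61.7% of all genes on that side. No library entered both the choice and the description. WT thus had the lowest share in each direction. The 9 rises called in set A alone, Mn1, Smad7, Pim1, Vps37b, Irf2bpl, Rnf19b, Pmepa1, Bhlhe40 and Snai1, were higher in all 3 series of set B, where 15.5% of all genes were. None of the 3 falls of set A, Mir1940, Kirrel and Snord45c, was lower in all 3, and each of them was listed at 0 FPKM in both set A libraries of 1 h.

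Snai1, a zinc-finger repressor known for driving epithelial-to-mesenchymal transition, went from 9.17 to 90.5 FPKM in WT, 11.2 to 81.4 in null A, 12.6 to 106 in null B, 24.8 to 181 in rvWT and 21.3 to 180 in sim. Every 1 h library of Snai1 lay above every 0 h library. Its difference of 2.95 ± 0.09 (SE, 5 series; limma) ran from 2.75 to 3.17 over the series and had the smallest adjusted p of the named genes (5.7e-08). The rvWT and sim series held the highest Snai1 at both times, and WT the lowest at 0 h.

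**Figure D1:**
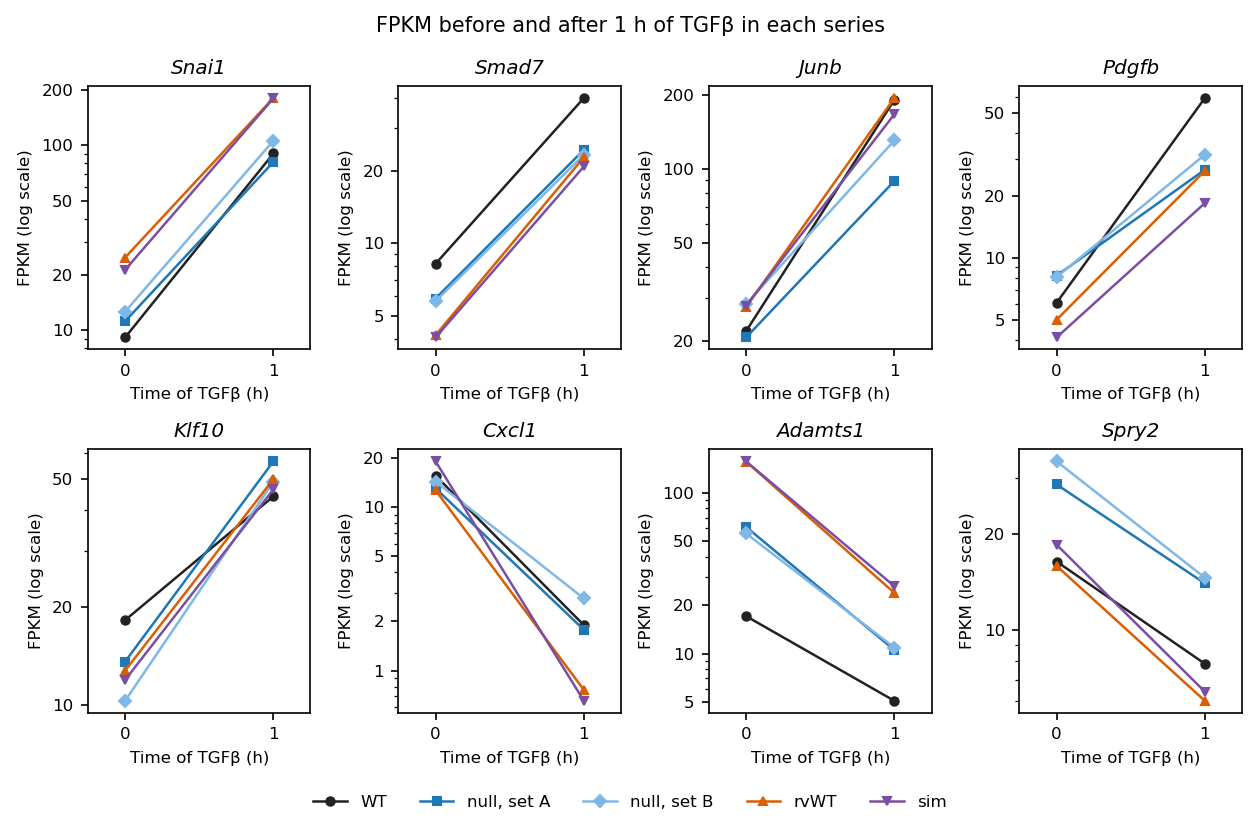
FPKM on a log axis (vertical) at 0 and 1 h of TGFβ (horizontal) for 8 named genes, with 1 line per series joining its 2 libraries. Snai1, Smad7, Junb, Pdgfb and Klf10 lie higher at 1 h in all 5 series, and Cxcl1, Adamts1 and Spry2 lie lower; the WT line of Adamts1 starts at 17.1 FPKM against 55.8 to 157 in the others.

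Feedback inhibitors and corepressors of the SMADs were among the genes that rose. Of 12 tested, 6 were higher and 1 was lower, with a median difference of 0.43 against -0.03 over all genes tested. Over all genes tested 3.95% were higher and 2.01% were lower, shares that stand beside the list counts that follow too. The members of every list were chosen with earlier results of these data known, so a high share may come in part from that choice. Smad7, the inhibitory SMAD that sends the receptor to degradation, went from 8.21 to 40.1 FPKM in WT, 5.89 to 24.4 in null A, 5.74 to 23.3 in null B, 4.14 to 22.7 in rvWT and 4.05 to 20.8 in sim. The series kept the same order at both times, with WT highest, and the difference was 2.04 ± 0.07 (adjusted p = 9.4e-08). Smad6, the inhibitory SMAD of the BMP branch, rose by 1.94 ± 0.14, from between 6.98 and 13.8 FPKM to between 26.0 and 43.8. Pmepa1, a membrane protein that sequesters receptor-activated SMADs, rose by 1.58 ± 0.07, with WT going from 23.3 to 74.5 FPKM and the null series from 8.95 and 9.86 to 27.0 and 28.2. The homeobox corepressors Tgif1 (1.12 ± 0.12) and Tgif2 (0.38 ± 0.05) rose as well. Ski, a SMAD corepressor and Arkadia substrate, rose by 0.79 ± 0.09: by 1.22 in WT (15.8 to 38.1 FPKM), by 0.56 and 0.58 in the null series, by 0.86 in rvWT and by 0.73 in sim. Cited2, a transcriptional cofactor that binds CBP and p300, was the member that fell, by 0.94 ± 0.13 on the log2 scale, from 46.4 to 59.0 FPKM at 0 h to between 18.7 and 43.4 at 1 h. The ubiquitin ligases Smurf1 (0.47 ± 0.16, adjusted p = 0.13), Smurf2 (0.29 ± 0.09, adjusted p = 0.10) and Nedd4l (0.06 ± 0.06) did not pass. Ldlrad4, another inhibitor of SMAD phosphorylation, showed a difference of -0.00 ± 0.08 at 1 h beside 1.59 at 4 h. Skil was not analysed here.

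Genes known as early TGFβ targets followed the same course: of 28 tested, 15 were higher and 2 were lower, and the median was 0.63. Besides Snai1, the rises included the transcription factors Bhlhe40 (1.99 ± 0.12) and Klf10 (1.82 ± 0.11), the latter first described as a TGFβ-inducible early gene. Bhlhe40 stood at 30.6 FPKM in WT and 13.5 to 17.1 elsewhere at 0 h, and at 128 and 55.7 to 71.5 at 1 h. Its differences of 1.86 to 2.07 were closely alike in the 5 series. Klf10 reached 44.1 to 56.6 FPKM from 10.3 to 18.3, and its rise was 1.23 in WT against 1.87 to 2.15 in the other series. Csrnp1 (1.53 ± 0.11), the kinase gene Nuak1 (1.45 ± 0.16), Runx1 (1.47 ± 0.22), the docking protein gene Nedd9 (1.00 ± 0.08), the stress sensor Gadd45b (1.15 ± 0.16) and the small GTPase gene Rhob (0.89 ± 0.11) rose too. The matricellular gene Ctgf went from 663 to 1413 FPKM in WT and from 37.7 to 52.9 FPKM up to 178 to 203 in the 4 other series, a difference of 1.88 ± 0.34 (adjusted p = 0.0084). WT held more Ctgf before TGFβ than any other series held after it, so the 2 times overlapped. Its relative Cyr61 rose by 0.76 ± 0.12, from 192 to 229 FPKM in WT and by 0.82 to 0.98 in the others. Ets1 also rose (0.27 ± 0.05), but not without rvWT at 0 h or either sim library (adjusted p up to 0.0507). The 2 falls were Snai2, the relative of Snai1 (-0.63 ± 0.10, from 7.60 to 2.90 FPKM in WT), and the chromatin factor Arid5b (-0.51 ± 0.08). Zeb1 (0.01 ± 0.05, adjusted p = 0.97) and Zeb2 (-0.13 ± 0.05, adjusted p = 0.20), which act beside Snai1 in other settings, did not pass.

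**Figure D2:**
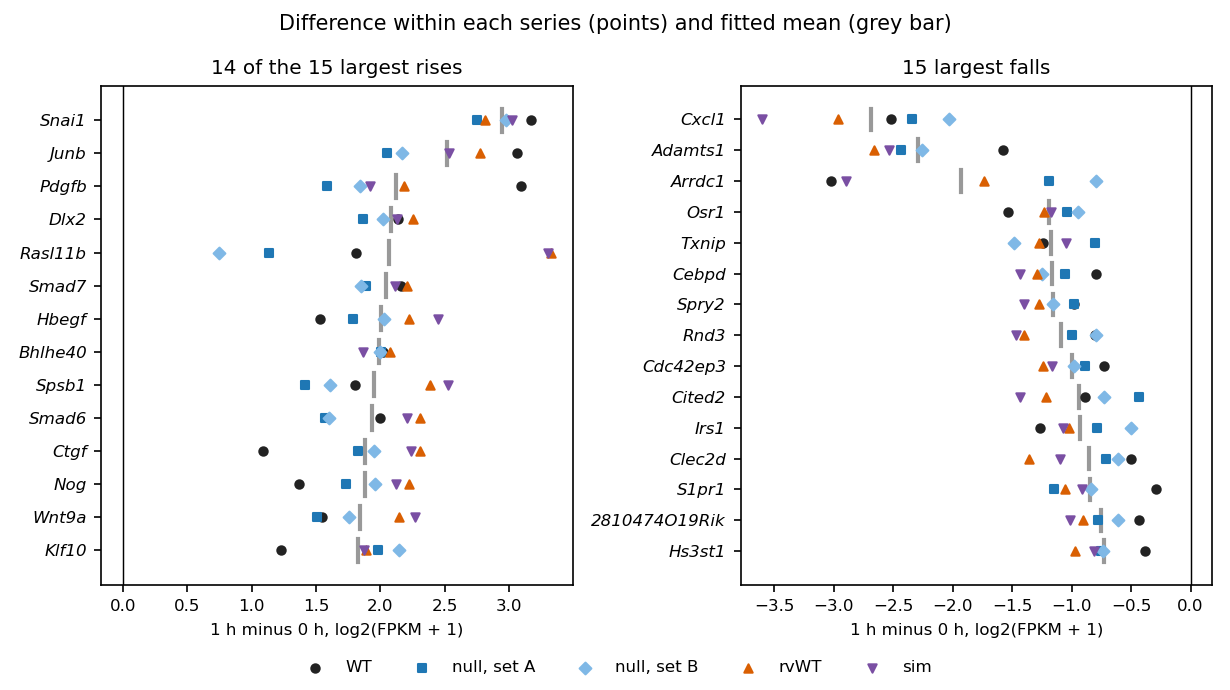
Differences of log2(FPKM + 1) between 1 h and 0 h (horizontal) for 14 of the 15 largest rises and the 15 largest falls (vertical), with 1 point per series and a grey bar at the fitted mean. Snai1, Dlx2, Smad7 and Bhlhe40 show tight points, while Rasl11b runs from 0.74 in null B to 3.33 in rvWT.

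The other large rises lay outside these groups. Dlx2, a homeobox factor of craniofacial development, went from 5.86 to 29.2 FPKM in WT, 2.61 to 12.2 in null A, 2.42 to 12.9 in null B, 1.54 to 11.1 in rvWT and 1.56 to 10.2 in sim. WT was highest at both times and no 0 h library reached the lowest 1 h library (2.08 ± 0.09, adjusted p = 7.4e-07). Spsb1, the substrate adaptor of a ubiquitin ligase, rose by 1.95 ± 0.15, to 18.1 and 22.1 FPKM in the null series and to between 33.0 and 39.0 in the other 3. The Spsb1 response in rvWT and sim minus that in null was 0.95 ± 0.10 and did not pass (limma adjusted p = 0.23). Rasl11b, a small GTPase of the RAS family, went from 1.16 to 6.58 FPKM in WT, 1.41 to 4.29 in null A, 2.69 to 5.19 in null B, 1.86 to 27.8 in rvWT and 2.66 to 35.1 in sim (2.06 ± 0.35, adjusted p = 0.0054). Both retroviral lines thus ended well above the other 3 series. That difference of response, rvWT and sim minus null, was 2.38 ± 0.29 and did not pass (adjusted p = 0.28).

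Transcription factors of the immediate early class, which respond to many stimuli without new protein synthesis, changed in part: 10 of 24 tested were higher and 1 was lower, with a median of 0.46. Junb, an AP-1 subunit, went from 22 to 191 FPKM in WT, 20.8 to 89.5 in null A, 28.4 to 131 in null B, 27.6 to 194 in rvWT and 27.9 to 167 in sim. The 0 h values were alike, and the null series ended lowest (2.52 ± 0.15, adjusted p = 5.8e-06). The AP-1 relatives Jun (0.76 ± 0.14) and Fosl2 (0.42 ± 0.07) rose less, and the call of Jun ended without sim as a whole (limma adjusted p = 0.0658). Fos rose by 0.87 ± 0.22, to at most 15 FPKM, with an adjusted p of 0.048 that passed 0.05 when any library except WT at 0 h was left out (up to 0.169). The nuclear receptor gene Nr4a1 rose by 1.49 ± 0.21, from 8.45 to 14.2 FPKM in WT and to between 19.0 and 25 in the others. Klf4 (0.94 ± 0.11), Ier3 (1.17 ± 0.18) and Ier5 (0.54 ± 0.06) rose, as did Zfp36, which encodes an mRNA-destabilizing protein (0.59 ± 0.12; adjusted p up to 0.0601 without sim at 0 h or either null B library). Egr3 passed at 3.47 FPKM or less on average (adjusted p = 0.048, up to 0.151 without any library except WT at 0 h). Klf2 was lower (-0.46 ± 0.10; adjusted p = 0.019, up to 0.0824 without WT at 0 h, null A at 1 h, rvWT at 1 h or either null B library). Egr1, a standard marker of ERK signalling, went from 12.4 to 15.7 FPKM in WT and was lower at 1 h in the 4 other series, with a difference of -0.16 ± 0.31 (adjusted p = 0.85). Myc (0.11 ± 0.22) and Atf3 (0.14 ± 0.15) did not pass.

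The feedback genes of the ERK pathway, dual-specificity phosphatases and Sprouty proteins, showed no common direction. Of 17 tested, 2 were higher and 2 were lower, and the median was -0.00. Spry2 went from 16.4 to 7.85 FPKM in WT, 28.7 to 14 in null A, 33.9 to 14.6 in null B, 15.9 to 6.01 in rvWT and 18.6 to 6.42 in sim. Every series lost more of its Spry2 than separated the 0 h and 1 h ranges (-1.16 ± 0.10, adjusted p = 0.00011). Spry1 was lower by a difference of -0.62 ± 0.08. Dusp8 (0.42 ± 0.09) and Spred2 (0.22 ± 0.05) were the rises. The call of Dusp8 ended without 7 of the 10 libraries (all but WT at 0 h and the null A libraries, adjusted p up to 0.0795), and that of Spred2 without 6 (all but WT at 1 h, null A at 0 h and the sim libraries, up to 0.0792). Dusp1 (-0.29 ± 0.11), Dusp6 (0.23 ± 0.31) and Dusp4 (0.31 ± 0.21) did not pass.

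Of 26 secreted growth factors and cytokines tested, 9 were higher and none was lower, against 3.95% and 2.01% of all genes tested. None lower in a list of this size is near the second share. At an unadjusted p below 0.05 (limma) 2 were lower, and the median was 0.08. Pdgfb, a ligand of the PDGF receptors, went from 6.07 to 59.2 FPKM in WT, 8.2 to 26.7 in null A, 8.06 to 31.5 in null B, 5.02 to 26.3 in rvWT and 4.13 to 18.4 in sim. The WT value at 1 h was the highest, from a 0 h level inside the range of the others (2.13 ± 0.19, adjusted p = 0.00011). Its relative Pdgfa rose by 0.77 ± 0.06, and so did their receptor gene Pdgfrb (0.63 ± 0.12, adjusted p = 0.010), by 0.14 in WT and 0.39 to 0.96 in the others. The call of Pdgfrb ended without null A, rvWT or sim as a whole (limma adjusted p up to 0.0804). Hbegf, a ligand of the EGF receptor, rose by 2.00 ± 0.35, from 7.84 to 19.7 FPKM up to 38.4 to 58.7. The Wnt ligands Wnt9a (1.85 ± 0.16) and Wnt11 (0.99 ± 0.14), the cytokine genes Lif (1.69 ± 0.26) and Csf1 (0.59 ± 0.10), and Vegfa (1.43 ± 0.25) rose. Vegfa rose by 0.76 and 0.80 in the null series and by 1.62 to 1.99 in the other 3. Its call ended without sim as a whole (limma adjusted p = 0.0514). Il6 rose by 1.04 ± 0.22, to at most 12.1 FPKM, but its call ended without WT at 1 h or any rvWT or sim library (adjusted p up to 0.0611). Inhba, a subunit of activin that stood at 18.4 to 34.0 FPKM, had a difference of -0.31 ± 0.24 at 1 h and 1.61 at 4 h. Bmp4 had a difference of -0.49 ± 0.14 that did not pass (adjusted p = 0.069). Nog, the secreted BMP antagonist noggin, rose by 1.88 ± 0.12, from 0.408 to 2.64 FPKM in WT, 3.26 to 13.2 in null A, 3.08 to 14.9 in null B, 0.758 to 7.22 in rvWT and 1.15 to 8.37 in sim.

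The receptors and SMADs themselves were mostly flat in this test. Of 21 tested, 3 were higher and none was lower (limma; 7 higher and 0 lower at an unadjusted p below 0.05; median 0.10). Smad3, the main transcriptional effector, rose by 0.31 ± 0.05, from between 18.9 and 27.9 FPKM to between 26.0 and 32.0. Its call ended without rvWT or sim as a whole (limma adjusted p up to 0.0653). Tgfb1, a TGFβ ligand itself, rose by 0.90 ± 0.18, from 7.92 to 12.8 FPKM up to 13.0 to 24.9 (adjusted p = 0.017, up to 0.0566 without WT at 1 h, either rvWT library or sim at 0 h). Ltbp3, which tethers the latent ligand, rose by 0.60 in WT and by 0.14 to 0.24 elsewhere, and its adjusted p of 0.032 passed 0.05 without 8 of the 10 libraries (all but WT and null A at 0 h, up to 0.0867). Bmpr2 did not pass (0.41 ± 0.11, adjusted p = 0.064).

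**Figure D3:**
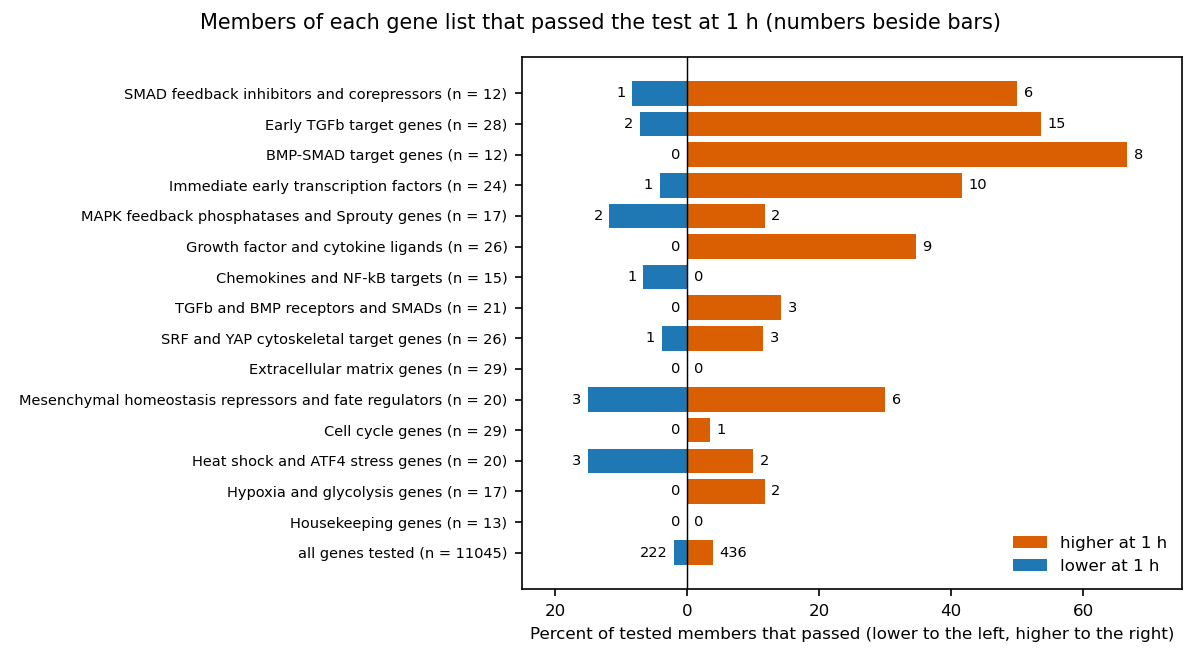
Share of the tested members of each gene list (vertical, n in brackets) that were higher (orange, to the right) or lower (blue, to the left) at 1 h, in percent, with the number of genes beside each bar. The BMP-SMAD, early TGFβ and SMAD feedback lists have 8 of 12, 15 of 28 and 6 of 12 members higher, against 436 of 11045 for all genes tested, and no matrix or housekeeping gene passed. List members were chosen with earlier results of these data known.

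Target genes of the BMP branch, which signals through SMAD1 and SMAD5, had the highest median of all lists, 1.06, and 8 of 12 tested were higher with none lower (limma; 12 higher and 0 lower at an unadjusted p below 0.05). The Id genes encode small proteins that bind basic helix-loop-helix transcription factors and keep them off DNA. Id1 went from 110 to 258 FPKM in null A, 147 to 362 in null B, 70.0 to 268 in rvWT and 67.6 to 295 in sim, but from 131 to 124 in WT. Id3 went from 168 to 440 in null A, 231 to 617 in null B, 225 to 690 in rvWT and 213 to 763 in sim, but from 169 to 173 in WT. Id2 went from 46.3 to 101 in null A, 32.3 to 87.4 in null B, 24.5 to 84.0 in rvWT and 29.4 to 101 in sim, but from 52.8 to 41.3 in WT. All 3 genes were therefore higher at 1 h by at least 1.11 log2 units in each series derived from null cells, and near or below their starting level in WT. Over the 5 series Id1 rose by 1.30 ± 0.25 (adjusted p = 0.011) and Id3 by 1.26 ± 0.30 (adjusted p = 0.032), while Id2 did not pass (1.13 ± 0.31, adjusted p = 0.060). The call of Id3 ended without any library except WT at 1 h (adjusted p up to 0.107). That of Id1 stood without any single library and ended without null A, rvWT or sim as a whole (up to 0.0806).

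The contrast of WT with the 4 series from null cells was chosen after these values were seen. It was 1.71 log2 units lower in WT for Id1 (-1.71 ± 0.09, adjusted p = 0.0116, limma over all genes), where 10 of 11045 genes (0.0905%) passed and 657 had an unadjusted p below 0.05. Without a null A library, a null B library or sim at 0 h the adjusted p for Id1 lay between 0.0568 and 0.0588, with differences of -1.68 to -1.73. For Id2 (-1.85, adjusted p = 0.0529) and Id3 (-1.53, adjusted p = 0.122) the same contrast did not pass. It rests on 1 WT series, and in it WT cannot be told apart from its isolate. Of the other 9 genes that passed, Drosha, Sfi1, Spata5, Cbx5, Mir1966 and Scarna2 were listed at or near 0 FPKM in a library. That leaves Mdfi (2.47 to 10.4 FPKM in WT, at most 2.54 at 1 h elsewhere), Fam210b (9.32 to 35.1 in WT, 4.14 to 6.25 at 1 h elsewhere) and Sept8 (4.27 to 11.5 in WT, 21.4 to 33.4 at 1 h elsewhere).

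Other BMP-SMAD readouts were higher at 1 h in WT as well. The rise was smaller than in the other series on average for Id4, Atoh8, Gata2 and Hes1, and larger for Gata3. Id4 went from 1.21 to 3.05 FPKM in WT and from 1.07 to 2.47 FPKM up to 4.35 to 6.95 in the others (1.24 ± 0.12, adjusted p = 0.00019). Atoh8, a basic helix-loop-helix factor, went from 26.0 to 48.7 FPKM in WT, 7.11 to 24.4 in null A, 9.80 to 35.4 in null B, 5.57 to 32.2 in rvWT and 7 to 36.4 in sim (1.77 ± 0.19, adjusted p = 0.00032). WT began above the 1 h level of null A and still rose, by 0.88 against 1.65 to 2.34. Gata2 (0.99 ± 0.10), Gata3 (0.56 ± 0.07) and Hes1 (1.44 ± 0.15) rose in all 5 series. The response in WT minus that in the null-derived series was -0.60 for Gata2 and -0.99 for Hes1, values that rest on 1 WT series. That contrast did not pass for Id4, Atoh8, Gata2, Hes1 or Gata3. Smad9, the third SMAD of the BMP branch, rose by 0.81 ± 0.17 (adjusted p = 0.017, up to 0.0727 without WT at 1 h, rvWT at 0 h, sim at 0 h or either null B library). Msx1 (0.23 ± 0.07), Msx2 (0.35 ± 0.11) and Hey1 (0.53 ± 0.21) did not pass.

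**Figure D4:**
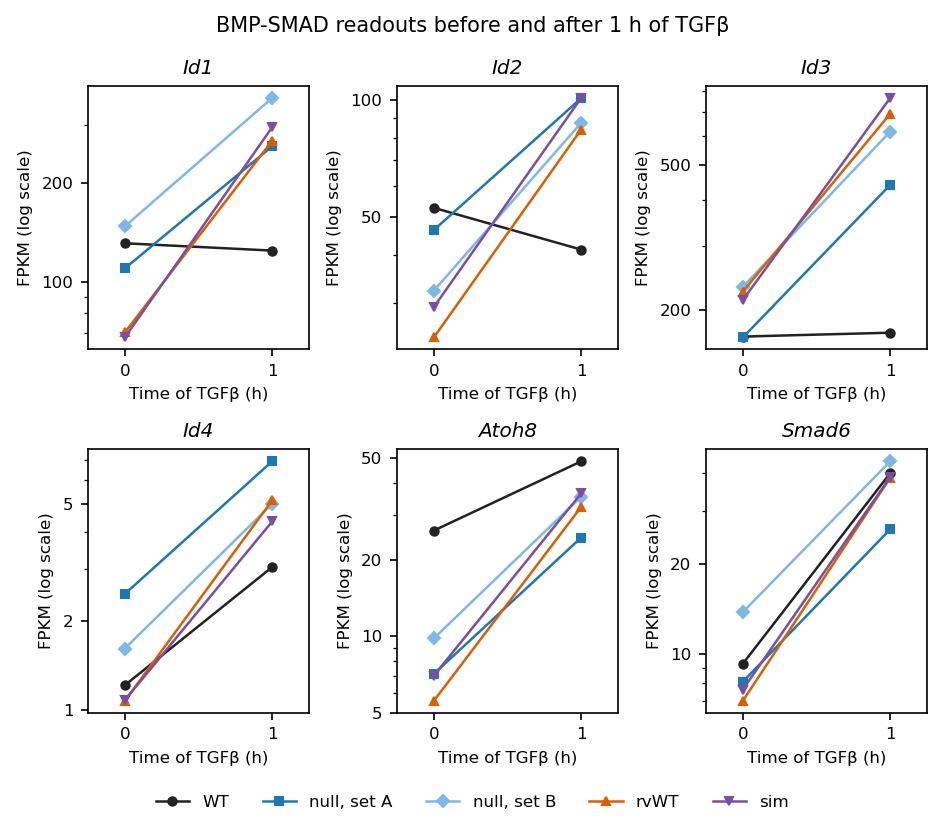
FPKM on a log axis (vertical) at 0 and 1 h of TGFβ (horizontal) for the Id genes, Atoh8 and Smad6, 1 line per series. The WT line is nearly level or falling for Id1 (131 to 124), Id2 (52.8 to 41.3) and Id3 (169 to 173), while the 4 series from null cells climb, and all 5 lines climb for Id4, Atoh8 and Smad6.

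The 250 bases before the start of Id2, Id3 and Id4 are shown because these genes moved together in the null-derived series. They come from the RefSeq promoter table of mouse build GRCm38.p6, which held no entry matched to Id1. The deposited table was made on mm9, and no position was converted. Capitals mark matches, on either strand, to the SMAD-box letters CAGAC or to GGCGCC, a GC-rich sequence bound by BMP-activated SMADs. The windows lie at chr12:25096093-25096342 (minus strand), chr4:136143572-136143821 (plus strand) and chr13:48260866-48261115 (plus strand).
Id2: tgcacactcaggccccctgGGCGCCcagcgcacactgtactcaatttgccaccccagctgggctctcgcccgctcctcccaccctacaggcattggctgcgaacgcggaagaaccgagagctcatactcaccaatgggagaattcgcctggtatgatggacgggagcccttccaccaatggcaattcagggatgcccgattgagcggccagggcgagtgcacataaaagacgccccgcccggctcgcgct
Id3: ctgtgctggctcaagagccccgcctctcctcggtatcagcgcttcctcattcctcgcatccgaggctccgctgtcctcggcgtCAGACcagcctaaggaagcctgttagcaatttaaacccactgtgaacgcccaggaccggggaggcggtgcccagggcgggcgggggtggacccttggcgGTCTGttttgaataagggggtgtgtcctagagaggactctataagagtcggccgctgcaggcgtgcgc
Id4: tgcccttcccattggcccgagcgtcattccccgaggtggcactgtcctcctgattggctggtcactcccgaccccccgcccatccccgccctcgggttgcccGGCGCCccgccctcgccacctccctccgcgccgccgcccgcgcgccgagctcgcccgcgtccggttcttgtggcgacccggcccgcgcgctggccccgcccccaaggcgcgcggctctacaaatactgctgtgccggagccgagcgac
The match in Id2 begins 231 bases before the start, those in Id3 at 167 and 68 bases and that in Id4 at 148 bases. Over all 32851 windows of this table and length, 42.2% held CAGAC and 9.59% held GGCGCC, so either is common in promoters. The Snai1, Smad6 and Atoh8 windows held neither. Promoter entries were matched to 75.2% of the genes that rose, 82.9% of those that fell and 79.0% of all genes tested. Motif shares were not compared between these groups.

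The falls were led by Cxcl1, a neutrophil-attracting chemokine. It went from 15.6 to 1.90 FPKM in WT, 13.1 to 1.78 in null A, 14.4 to 2.77 in null B, 12.7 to 0.762 in rvWT and 19.1 to 0.653 in sim. All 0 h libraries lay far above the highest 1 h library, with the lowest values in the retroviral lines (-2.69 ± 0.21, adjusted p = 3.7e-05). It was the sole member to pass of 15 chemokine and NF-κB target genes tested, whose median was 0.05: Ccl2 (0.32 ± 0.14), Ccl7 (0.50 ± 0.18) and Ccl17 (0.53 ± 0.15) did not. Since 5.96% of all genes tested passed, 1 of 15 is near that share. Adamts1, a secreted metalloproteinase, went from 17.1 to 5.07 FPKM in WT, 61.3 to 10.5 in null A, 55.8 to 10.9 in null B, 156 to 23.8 in rvWT and 157 to 26.2 in sim. Its 0 h level differed widely between series, and each series fell, by 1.57 in WT and 2.26 to 2.67 elsewhere on the log2 scale (-2.29 ± 0.24, adjusted p = 0.00031). Osr1, a zinc-finger factor of mesenchymal progenitors, went from between 4.63 and 9.34 FPKM to between 1.74 and 3.39 (-1.19 ± 0.11). The transcription factor Cebpd fell by 1.17 ± 0.09, from 20.4 to 8.01 FPKM in null B and from 2.35 to 0.927 in WT.

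Genes of the cytoskeleton and of growth factor signalling were also among the falls. Rnd3, an atypical small GTPase that counters actin contractility, went from 84.6 to 48.0 FPKM in WT, 58.6 to 28.8 in null A, 48.0 to 27.3 in null B, 48.8 to 17.9 in rvWT and 55.5 to 19.4 in sim (-1.09 ± 0.10, adjusted p = 0.00016). Cdc42ep3, an effector of the GTPase CDC42, fell by 1.00 ± 0.10, and both retroviral lines ended lowest for both genes. Irs1, the adaptor of the insulin receptor (-0.93 ± 0.13), and the sphingosine phosphate receptor gene S1pr1 (-0.85 ± 0.13) were lower in all 5 series, as was Clec2d (-0.86 ± 0.12). Txnip, an inhibitor of thioredoxin and of glucose uptake, was lower by -1.17 ± 0.23 (adjusted p = 0.011, up to 0.0541 without either null B library). The call of Hs3st1, a heparan sulfate sulfotransferase gene (-0.73 ± 0.19, adjusted p = 0.048), ended without any library except WT at 0 h (up to 0.152). Arrdc1 (-1.93 ± 0.48, adjusted p = 0.041, up to 0.129 without any library except null A at 1 h) was listed at 0.0538, 0.0684 and 0.0048 FPKM in WT, rvWT and sim at 1 h, which may be failed estimates.

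Among regulators of mesenchymal fate and homeostasis, 6 of 20 were higher and 3 were lower (median 0.19). Ddit4, an inhibitor of mTORC1 (0.96 ± 0.08), Klf9 (0.94 ± 0.09), the forkhead genes Foxo1 (0.82 ± 0.09), Foxf1 (0.75 ± 0.09) and Foxo3 (0.29 ± 0.07), and the clock gene Per2 (0.51 ± 0.08) were the rises. Besides Txnip, Twist1 (-0.26 ± 0.06) and Sesn2 (-0.32 ± 0.08) were lower. Ddit4 went from 13.6 to 27.2 FPKM in WT, 14.5 to 28.8 in null A, 14 to 29.2 in null B, 28.0 to 61.1 in rvWT and 26.2 to 46.9 in sim, so its rise was of like size from different starting levels.

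In the remaining lists between 0 and 5 members passed at 1 h. Of all genes tested 5.96% passed, so 0 or 1 member in lists of this size is near that share. None of 29 matrix genes passed the limma test, and 4, led by the lysyl oxidase gene Loxl2 (0.15 ± 0.05), had an unadjusted p below 0.05. Col1a1 stood at 437 and 588 FPKM in WT at 0 and 1 h and between 1008 and 1988 in the other series (0.13 ± 0.07 at 1 h beside 0.40 at 4 h and 0.87 at 16 h). Of 26 actin-cytoskeleton and YAP target genes, Ajuba (0.37 ± 0.04), Fhl2 (0.28 ± 0.04) and Pdlim7 (0.20 ± 0.05) were higher and Filip1l (-0.61 ± 0.08) was lower. Pdlim7 lost its call without any library except rvWT at 1 h (adjusted p up to 0.121). Of 29 cell cycle genes the inhibitor gene Cdkn1a alone passed (0.26 ± 0.07, adjusted p = 0.039), and its call ended without any library except those of null A (up to 0.121). Of 20 heat shock and ATF4 genes, the chaperone genes Dnajb1 (0.31 ± 0.04) and Hspb1 (0.35 ± 0.07) were higher and Ddit3 (-0.49 ± 0.05), Chac1 and Sesn2 were lower. Hspb1 lost its call without rvWT or sim as a whole (limma adjusted p up to 0.0589). Chac1 (-0.27 ± 0.07) lost its call without 8 of the libraries (all but WT at 1 h and rvWT at 0 h, adjusted p up to 0.137). Hexokinase 2, encoded by Hk2, rose by 0.93 ± 0.15 and was with Vegfa the sole hypoxia and glycolysis gene of 17 to pass. None of 13 housekeeping genes passed the limma test (median -0.02, 2 at an unadjusted p below 0.05). Of the epithelial, endothelial, haematopoietic and muscle markers tested none passed by limma, with 2, 1, 1 and 0 at an unadjusted p below 0.05. Of the neural markers Tubb3 rose by 0.60 ± 0.07, to at most 8.57 FPKM.

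The differences at 4 h (4 series, without null B) and 16 h (2 series, WT and null A) come from the same fit. They share the 0 h libraries with those at 1 h, so they are set side by side without a test between times. The lines that enter also differ between times. Snai1 had 2.95 at 1 h, 1.82 at 4 h and 1.46 at 16 h, and Smad7 had 2.04, 1.15 and 0.92. Dlx2 had 2.08, 0.61 and 0.16, and Klf10 had 1.82, 0.74 and 0.68. Bhlhe40 (1.99, 2.00 and 1.83) and Tgif1 (1.12, 1.12 and 1.15) had values of like size at all 3 times. Pmepa1 (1.58, 2.31 and 2.12), Ctgf (1.88, 3.07 and 2.72) and Pdgfb (2.13, 2.64 and 2.39) had their lowest value at 1 h. Several BMP-SMAD readouts had opposite signs: Atoh8 had 1.77, -1.82 and -1.57, Id3 had 1.26, -1.35 and -1.09, Id4 had 1.24, -0.74 and -0.99, Smad9 had 0.81, -0.69 and -0.91, and Smad6 had 1.94, -0.43 and -0.61. Of the falls, Cxcl1 had -2.69, -1.71 and -2.30, Adamts1 -2.29, -1.86 and -1.31, and Spry2 -1.16, -0.69 and -1.07, while Cited2 (-0.94, -0.20 and -0.27) and Filip1l (-0.61, -0.07 and -0.08) were nearer to 0 at the later times.

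**Figure D5:**
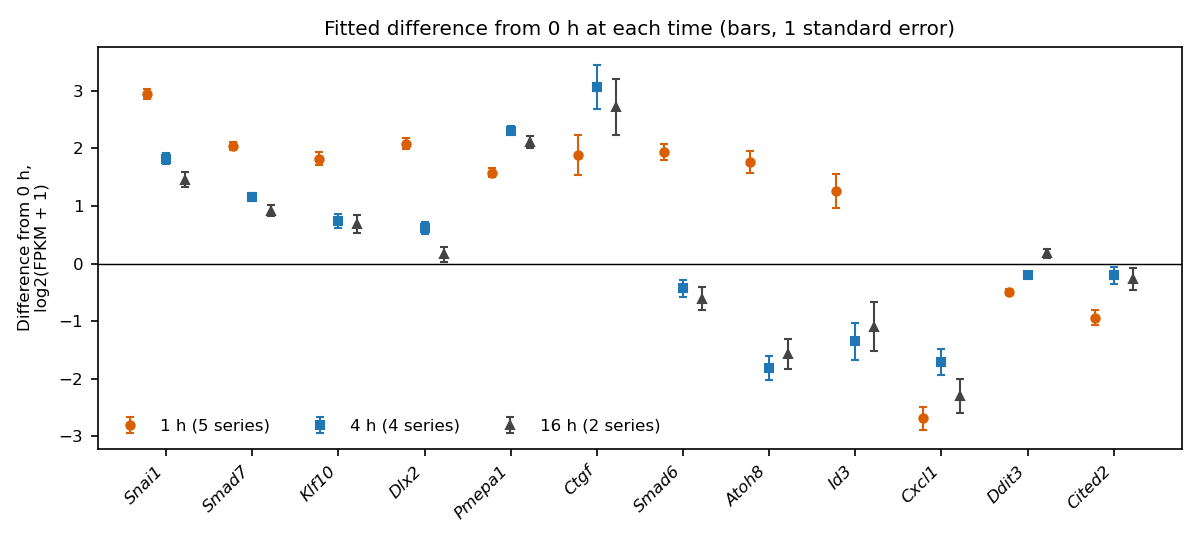
Fitted differences from 0 h on the log2(FPKM + 1) scale (vertical) with 1 standard error for 12 named genes (horizontal) at 1 h (5 series), 4 h (4 series) and 16 h (2 series). Snai1, Smad7, Klf10 and Dlx2 are highest at 1 h, Pmepa1 and Ctgf are lowest at 1 h, and Smad6, Atoh8 and Id3 lie above 0 at 1 h and below it later.

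Whether the 1 h response depended on Arkadia was tested by contrasts between series. For the response in WT and rvWT minus that in the null series, 2 of 11045 genes passed (0.0181%) and 264 had an unadjusted p below 0.05. For sim minus null, 1 gene passed (0.00905%) and 374 had an unadjusted p below 0.05. The genes were the small RNAs Mir199a-1 and Scarna2, and both were listed at 0 FPKM in several libraries: Scarna2 at 0 in all 5 libraries of 0 h and in WT, rvWT and sim at 1 h, and Mir199a-1 at 0 in all 5 libraries of 1 h. Their fitted differences depend on the pseudocount. A fit of rvWT and sim minus null, chosen after the data were seen, gave 2 genes (0.0181%), Scarna2 and Cbx5, the latter listed at 0 FPKM in several libraries, and 426 at an unadjusted p below 0.05. These fits had 3 residual degrees of freedom, and a p that misses the threshold does not show that the lines responded alike. Leaving out single libraries moved the count between 0 and 9 for WT and rvWT and between 0 and 10 for sim. The responses of rvWT and sim were 2.82 and 3.02 for Snai1, 2.21 and 2.11 for Smad7, and -2.96 and -3.60 for Cxcl1, and the difference between these lines was not tested. Ski, the Arkadia substrate, rose by 1.22 in WT and 0.86 in rvWT against 0.56 and 0.58 in the null series and 0.73 in sim, a difference of 0.47 ± 0.17 between WT with rvWT and null (unadjusted p = 0.0409, limma adjusted p = 1.0).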

How the data were processed

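RNA was measured in 16 poly(A) libraries, of which the 10 at 0 and 1 h of TGFβ (2.5 ng/ml) carry this comparison. The authors deposited 1 table of FPKM for 12100 genes, without counts. Cufflinks 2.2.1, STAR 2.3.0e, CASAVA 1.8.2 and SAMtools are named in the submitters' processing notes, beside build mm9, without a role or an order. Annotation, multiply mapped reads and normalization: not given in the sources used here. A gene has 1 symbol and 1 transcript accession, so its value can be that of 1 isoform, and genes with near-identical copies are uncertain. Per the labels' protocols the library kit marks strand.

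FPKM were analysed as log2(FPKM + 1) with limma 3.58.1 (limma-trend, R 4.3.3) over all 16 libraries, with series and time as terms, for the 11045 genes with a mean of at least 1 FPKM, and Benjamini-Hochberg adjustment (8 residual degrees of freedom). The block was the series, because the 0 and 1 h libraries of a series come from the same line and set; across the 10 pairs of series the 1 h differences correlated at 0.569 to 0.686 over genes with at least 5 FPKM at 0 h, with small RNAs and genes that drop out left aside, and at 0.115 to 0.258 over all genes (genes are not independent replicates). Responses were compared between series with added terms for time by line (3 residual degrees of freedom). The code was tested on simulated data. Since the depth is unknown, precision could be judged from the libraries' scatter only.

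Named genes were Rnf111, the 15 largest rises and 15 largest falls that passed with at least 5 FPKM on the higher side and the same direction in all 5 series (no small RNAs), from each list up to 4 members (smallest p), all members of the signalling lists, and genes that passed a difference between lines; other genes were chosen after their values were seen. A gene that this rule names is not reported here. The members and lists were chosen with earlier results of these data known. Alternatives were pseudocounts of 0.1 and 5, quantile and median-ratio scaling, no filter, a mean of at least 5 FPKM, other variance settings, no block, each set alone, and each series or library left out.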

Additional observations from a re-analysis of the deposited data

Results flagged for a closer look

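In 6 of the 92 named genes that passed, the difference of 1 series stood apart from the other 4 by more than Dixon's 95% limit for 5 values, which chance does in about 1 gene in 20, and 5 of the 6 were WT. The WT difference of log2(FPKM + 1) was 0.26 for Cyr61 (0.82 to 0.98 in the other series), 0.035 for Id3 (1.39 to 1.84), 0.69 for Nr4a1 (1.58 to 1.82), 0.60 for Ltbp3 (0.14 to 0.24) and 0.39 for Pdlim7 (0.13 to 0.19). For Nedd9 it was null A, at 0.74 against 1.02 to 1.11. WT therefore lay below the others for Cyr61, Id3 and Nr4a1 and above them for Ltbp3 and Pdlim7.

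In a contrast chosen after the Id values were seen, which rests on 1 WT series, the Id1 response was 1.71 log2 units lower in WT than in the null-derived series (-1.71, limma adjusted p = 0.0116); without a null A library, a null B library or sim at 0 h the adjusted p was 0.0568 to 0.0588. The response also differed between lines by limma's test for Mir199a-1 (6.68, WT and rvWT minus null) and Scarna2 (-8.12 for WT and rvWT minus null and again for sim minus null, and -4.06 for WT minus the null-derived series). Mir199a-1 and Scarna2 are small RNAs listed at 0 FPKM in several libraries, and these values depend on the pseudocount.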

How the results depend on the processing

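The fit with the series as a block (pairing each 1 h library with the 0 h library of its line) called 436 rises and 222 falls; with no replicate block the counts were 58 and 4. Other settings that moved a count by over 1.5 times were the 10 libraries alone (693 rises, 701 falls), a minimum of 5 FPKM (115 falls), set A alone (9 and 3) and set B alone (89 falls). Leaving out a library or series gave 255 to 431 rises and 68 to 186 falls, fewest without sim; the cause was not tested. Median-ratio scaling gave 492 and 163, a smaller share of falls. None of the 92 named genes that passed reversed in any setting, but nearly all called genes agreed over the series, so a reversal was unlikely beforehand. Of these 92, 74 kept their call with each of the 10 libraries left out and 66 with each of the 5 series. The call was lost by 69 with no block, by 88 with set A alone and by 13 with set B alone. In all settings 3 of the 92 kept it. The call of Ctgf ended without sim (adjusted p = 0.0528). Of the fits of a pseudocount, filter, scaling, variance or library choice, 11 genes lost a call: Arrdc1, Cdkn1a, Chac1, Egr3, Fos, Hs3st1, Id3, Il6, Klf2, Ltbp3 and Pdlim7, with adjusted p from 0.0523 to 0.176. For WT and rvWT against null (2 genes), robust variances and the 10 libraries gave 4 each, and single libraries left out 0 to 9. For sim against null (1 gene) the values were 4 with a pseudocount of 0.1, 0 with a minimum of 5 FPKM, 4 with robust variances, 11 with the 10 libraries and 0 to 10 with single libraries left out. Contrasts added after seeing the data gave, for WT against the null-derived series (10 genes), 17 with a pseudocount of 5, 17 with robust variances and 6 to 17 with single libraries left out. For rvWT and sim against null (2 genes) they gave 4 with a pseudocount of 0.1, 6 with the 10 libraries, 0 without small RNAs and genes that drop out, and 1 to 11 with single libraries left out. The contrasts of WT against the null-derived series and of rvWT and sim against null could not be fitted without a WT library, nor that of sim against null without a sim library. The share of set A rises that were higher in set B stayed at 100%. Depth limits genes with low FPKM, by an amount that is unknown.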

Other observations

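Genes whose symbol begins with Zfp, most of which encode zinc-finger proteins, were lower at 1 h in a larger share than other genes. Of 260 such genes tested, 36 were lower (13.8%) and 7 were higher, against 186 lower (1.72%) and 429 higher of the 10785 other genes; the class was chosen after its values were seen, and no test of it is given. Their median difference was -0.17 against -0.03, and it was below that of the other genes in each series, at -0.20 in WT, -0.17 in null A, -0.14 in null B, -0.16 in rvWT and -0.23 in sim. Most of the falls were of genes with low FPKM: Zfp53 went from 4.19 to 2.41 FPKM on average over the 5 series (-0.61 ± 0.09, limma adjusted p = 0.0020), Zfp763 from 2.77 to 1.48 (-0.60 ± 0.10) and Zfp82 from 1.29 to 0.468 (-0.66 ± 0.09). Better expressed members were Zfp7, from 9.83 to 7.15 FPKM (-0.40 ± 0.07, adjusted p = 0.0088), and Zfp280b, from 7.58 to 6.33 (-0.22 ± 0.04). Near-identical members of this family can share reads, which the counting may have split. Among the 7 rises were the mRNA-decay genes Zfp36 (0.59 ± 0.12) and Zfp36l2 (0.70 ± 0.16) and the corepressor gene Zfp703 (1.12 ± 0.17, from 7.85 to 18.7 FPKM).

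Zfp503, a relative of Zfp703, was lower by -1.19 ± 0.28 (adjusted p = 0.030). It went from 12.5 to 5 FPKM in null A, 15.5 to 7.27 in null B, 20.5 to 4.71 in rvWT and 23.0 to 4.33 in sim, and from 0.339 to 0.649 in WT, where it was scarcely present at either time. Lmcd1, a LIM-domain cofactor gene, did the reverse: it went from 6.28 to 30.8 FPKM in WT and stayed at or below 0.532 FPKM in the other series. Its WT response minus that of the null-derived series was 2.07 ± 0.20 and did not pass (adjusted p = 0.075).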
